A study of Mus musculus with 15 samples.

Results

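Collagens are the proteins of the extracellular matrix whose chains wind around each other into a rope-like helix, and each chain is the product of its own gene. All 44 mouse genes with a collagen chain symbol, Col followed by a type number, the letter a and a chain number, were taken from 23420 genes counted in embryonic lung. The choice was by symbol and used no threshold on a measured value. They fell into 8 fibrillar, 7 cartilage, 9 basement membrane and 6 beaded filament chains, 2 short-chain network chains, 6 fibril-associated chains, 4 transmembrane chains and 2 that were placed in no class.

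The lungs came from wild-type mouse embryos of the outbred CD1 strain, and no group carried a transgene or a mutation. Lungs explanted at E12.5 (E for embryonic day) were cultured for 48 h at low or at high transmural pressure, that of the fluid in the airways against the outside. Fresh lungs were taken at E12.5, at E13.5 or at E14.5. Each of the 5 groups held 3 RNA libraries of whole lung, each a pool of 6 lungs at low pressure and at E12.5 and of 3 lungs in the other groups. Whether pools came from separate litters or cultures is not stated in the labels, so each p-value reflects only how these pools vary, which may be technical. The design asks how transmural pressure changes gene expression in the growing airway, beside the change of the lung in the embryo over the same 48 h.

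In lung, interstitial fibres of type I and type III collagen lie in the mesenchyme around the airways, and type V collagen regulates how those fibres assemble. Sheets of type IV collagen, with type XVIII collagen, lie in the basement membrane under the epithelium and around vessels. Type VI collagen forms beaded filaments between the fibres and the basement membrane, and types II, IX, X and XI are best known from cartilage, which in the lung forms in the trachea and main airways. Chains of one type are joined inside the cell in fixed combinations, which differ between types, so the balance of their transcripts has long been of interest.

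Total counts per library ran from 18837343 to 44341263, so that 3 counts correspond to 0.0677 to 0.159 CPM, the count scaled to a common library size. The 7 markers of lung identity were detected in all groups, with summed levels of 656 to 981 CPM. Among the cultured libraries, replicate 3 of the low-pressure group had counts for 14637 genes, against 16509 to 16726 in the other 5. Replicate 1 of each fresh stage stood apart from replicates 2 and 3, also in reads of ribosomal protein genes (3.59%, 4.01% and 4.36% of counts from the youngest to the oldest stage, against 1.77% to 2.24% in the other 6), and results that rest on that split are given with the replicate number as a block. In all lists of values below, replicates 1, 2 and 3 follow in that order.

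All 44 genes had a single gene model in GENCODE M21 on build GRCm38, on 15 chromosomes. The 6 type IV chains form 3 head-to-head pairs that are transcribed away from a shared stretch of DNA. Col4a1 (chr8:11198423-11312826, minus strand) and Col4a2 (chr8:11312805-11449287, plus strand) have start sites 21 bases apart and share 22 bases of exon. Col4a3 (chr1:82586921-82722059, plus strand) and Col4a4 (chr1:82448423-82586849, minus strand) start 72 bases apart. Col4a5 (chrX:141475385-141689234, plus strand) and Col4a6 (chrX:141165403-141474076, minus strand) start 1309 bases apart. Col3a1 (chr1:45311538-45349706) lies tail to tail with Col5a2 on chromosome 1, as does Col9a1 (chr1:24177610-24252684, plus strand) with Col19a1 (chr1:24261890-24587472, minus strand), 9205 bases away. Exons of 13 of the 44 genes overlap another gene, by at most 6.07% of the exon bases (Col9a3 with Tcfl5), and the strand setting of the counting is not given in the sources used here. Without use of the strand, reads from such stretches cannot be assigned to one gene.

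Promoter sequence from RefSeq (GRCm38.p6) was matched by symbol for 35 of the 44 genes, in 38 windows. Col1a1, Col2a1, Col4a3, Col5a2, Col9a3, Col12a1, Col14a1, Col22a1 and Col26a1 had no entry. In the 250 bases before the start, searched on both strands, the GC box GGGCGG was in 22 of the 38 collagen windows (57.9%) and in 32.7% of 32851 windows of all genes. The CCAAT box CCAAT was in 13 (34.2%, against 33.8%) and the TATA box TATAAA in 5 (13.2%, against 12.4%). The 4 stretches below were picked by gene: the chain of the highest level (Col3a1), the 2 chains with large drops under pressure that have a window free of exons (Col8a1 and Col9a1), and the whole stretch between the divergent pair Col4a3 and Col4a4. No level or fold change was related to their letters. Sequences run 5′ to 3′ on the gene's own strand (plus strand for the pair), and capitals mark a match to any of the 3 motifs.
Col3a1, chr1:45311288-45311537: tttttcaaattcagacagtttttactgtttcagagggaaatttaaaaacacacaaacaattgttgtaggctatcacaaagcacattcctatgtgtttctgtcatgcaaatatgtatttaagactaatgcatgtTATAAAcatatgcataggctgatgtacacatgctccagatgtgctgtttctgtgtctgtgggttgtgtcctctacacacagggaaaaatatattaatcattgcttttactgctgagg
Col8a1, chr16:57754738-57754987, minus strand: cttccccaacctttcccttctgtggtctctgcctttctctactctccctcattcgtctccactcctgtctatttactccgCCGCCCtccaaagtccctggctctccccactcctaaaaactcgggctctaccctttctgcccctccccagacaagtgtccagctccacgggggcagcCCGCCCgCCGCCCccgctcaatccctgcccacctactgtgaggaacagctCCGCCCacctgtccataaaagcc
Col9a1, chr1:24177360-24177609: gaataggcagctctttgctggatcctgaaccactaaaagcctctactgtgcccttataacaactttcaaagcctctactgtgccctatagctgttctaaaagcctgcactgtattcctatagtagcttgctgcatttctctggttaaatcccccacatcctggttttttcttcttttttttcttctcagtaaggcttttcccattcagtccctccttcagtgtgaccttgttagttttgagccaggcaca
Col4a3 and Col4a4, chr1:82586850-82586920: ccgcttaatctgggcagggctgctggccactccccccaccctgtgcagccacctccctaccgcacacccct
The Col3a1 window held 1 TATA box, at -117 from the start, and no GC box. The Col8a1 window held 4 GC boxes, read on the other strand as CCGCCC, at -170, -73, -66 and -23. RefSeq has 2 windows for Col9a1: no motif matched in the one printed, at the upstream start, and the other held a CCAAT box. None matched between Col4a3 and Col4a4, which says only that these letters are not there. A match is a description of the letters and not a site of binding.

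Levels of different chains were compared per length, as CPM per kb of the principal transcript on one scale for all 15 libraries. Col3a1, Col1a2 and Col1a1, the chains of types III and I, were the top 3, in that order, in each of the 5 groups. The order below Col3a1 depends on the length used. With the union of all exons Col3a1 still led each group, but Col1a1 (383 CPM per kb) lay above Col1a2 (257) at high pressure, also at E13.5 and E14.5, and at low pressure Col6a1 (171) and Col1a1 (167) both lay above Col1a2 (132). Together they made up 50.7 ± 0.56% (SD, n = 3) of all collagen CPM per kb at low pressure, 56.9 ± 2.97% at high pressure, 61.5 ± 5.96% at E12.5 and 64.1 ± 5.97% at E14.5. Beaded filament chains held 15.7 ± 1.11% at low and 16.3 ± 1.17% at high pressure, but 5.19 ± 3.33% at E12.5 and 7.33 ± 3.31% at E14.5. Basement membrane chains held 10.8 ± 0.97% at low pressure, 10.9 ± 1.40% at high pressure, 13.2 ± 1.64% at E12.5 and 12.7 ± 2.21% at E14.5. Cartilage chains held 5.73 ± 1.03% at low pressure, 3.06 ± 0.17% at high pressure, 3.34 ± 0.23% at E12.5, then 2.79 ± 0.35% at E13.5 and then 1.92 ± 0.32% at E14.5. Collagen reads were 1.22 ± 0.11% of all counts at low pressure, 1.69 ± 0.12% at high pressure, 0.611 ± 0.11% at E12.5, then 0.678 ± 0.053% at E13.5 and then 0.869 ± 0.048% at E14.5. Reads of ribosomal protein genes moved beside them with pressure, from 2.10 ± 0.15% of all counts at low to 3.22 ± 0.15% at high pressure, and their part was not tested.

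**Figure D1:**
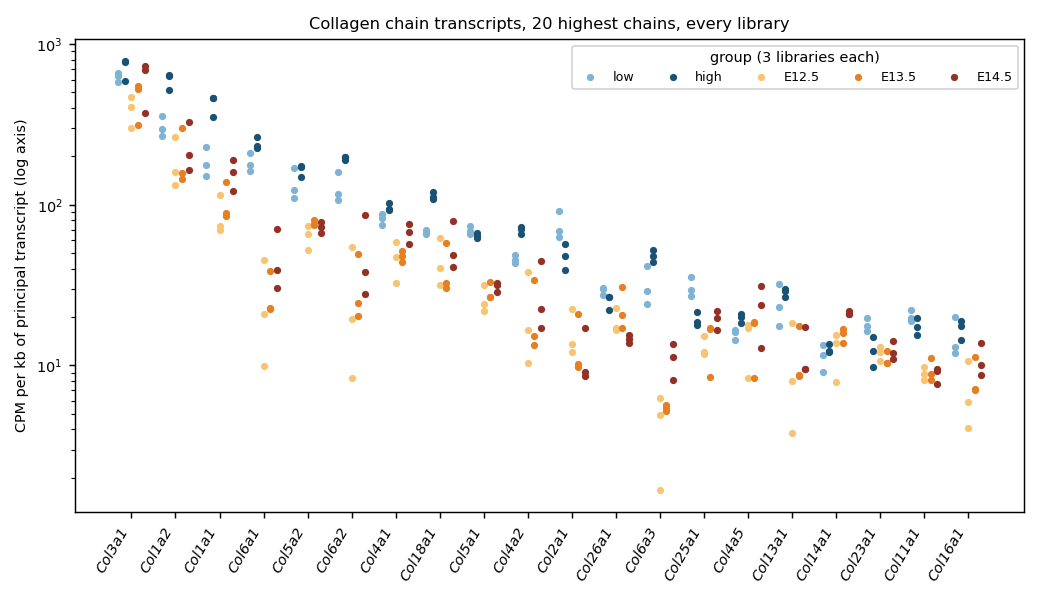
Level of the 20 collagen chains with the highest mean, as CPM per kb of principal transcript on a log axis, with 1 point per library and 3 libraries per group. Col3a1, Col1a2 and Col1a1 head the order with this length (with the exon union Col1a1 lies above Col1a2 in all groups but E12.5), and the 6 cultured libraries of Col6a1, Col6a2 and Col6a3 lie above all 9 fresh ones.

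At the other end, 37 of the 44 chains reached a mean of 5 CPM in at least 1 group. Col10a1, the chain of hypertrophic cartilage, had 7 reads in all and none in 12 of the 15 libraries. Col28a1 had 67 reads and Col5a3, a minor type V chain, 180. Col6a4 stayed between 1.16 and 3.02 CPM, Col17a1, a transmembrane chain of the epithelial attachment plaque, between 0.712 and 6.46 CPM, and Col20a1 between 1.12 and 4.12 CPM. Col19a1 was between 0.493 and 4.44 CPM but passed the test under pressure.

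Between high and low pressure, 20 of the 42 collagens with enough reads to test changed at an adjusted p under 0.05 (edgeR's quasi-likelihood test, Benjamini-Hochberg over all genes), 13 higher and 7 lower. Among all 14937 genes tested, 26.1% were called, 14.0% higher and 12.2% lower. Both chains of type I collagen rose, Col1a1 2.30-fold and Col1a2 1.95-fold, whereas Col3a1 did not pass the test. Rises were found among type I, IV, VI, IX, XI and XVIII chains, and the 3 largest drops were those of Col8a1, Col19a1 and Col9a1. The median log2 fold change of the 42 collagens was 0.21, against 0.014 over all genes. The 3 high-pressure and 3 low-pressure libraries did not overlap for 24 of the 42 collagens (15 higher, 9 lower), against 46.8% of all genes (25.0% higher, 21.8% lower). Leaving out each library in turn kept 10 of the 20 calls each time, those of Col1a1, Col1a2, Col4a2, Col4a6, Col6a6, Col8a1, Col9a1, Col18a1, Col19a1 and Col25a1. The count of calls fell to between 11 and 13 without any one high-pressure library or without low-pressure replicate 1 or 2, and rose to 25 without low-pressure replicate 3.

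**Figure D2:**
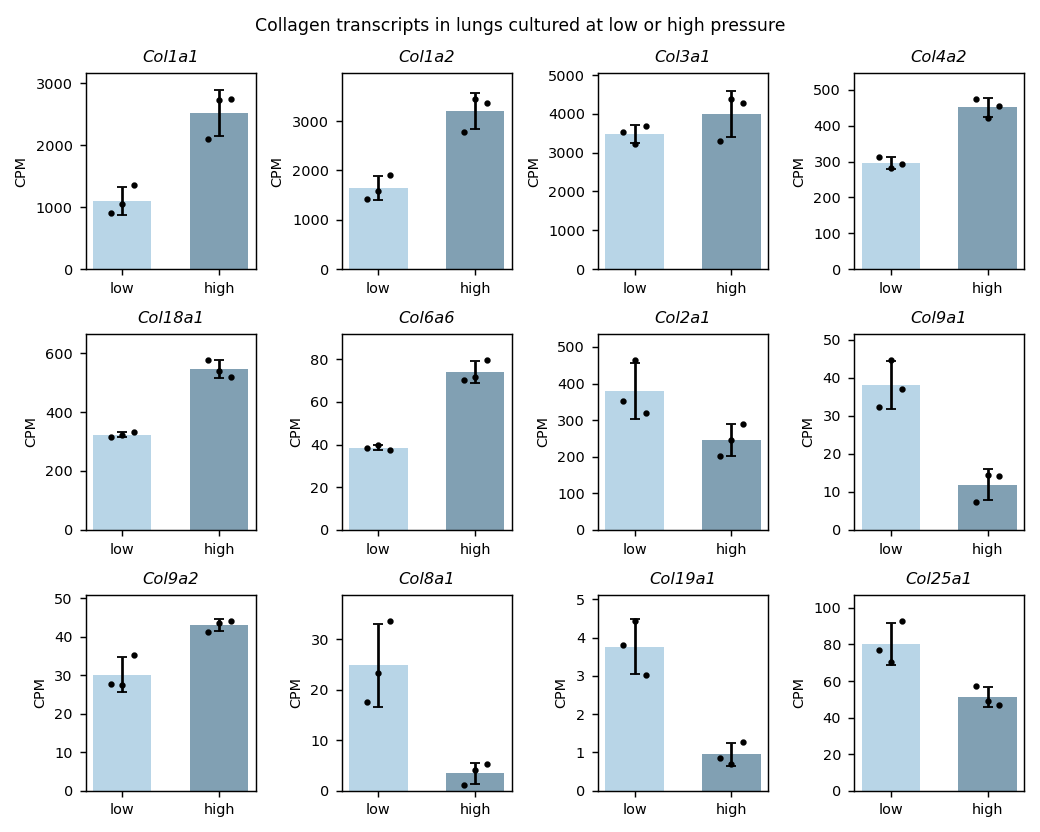
CPM of 12 collagens in lungs cultured at low or high pressure. Bars are means, error bars SD and points the 3 libraries of each group, with axes from 0. Col1a1, Col1a2, Col4a2, Col18a1, Col6a6 and Col9a2 are higher and Col2a1, Col9a1, Col8a1, Col19a1 and Col25a1 lower at high pressure without overlap, while the groups of Col3a1 overlap.

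Of the 8 fibrillar chains, 2 rose, 1 fell and 5 did not pass the test. Col1a1, the more abundant chain of the type I protein, was at 900.5, 1047 and 1350.2 CPM at low pressure and 2093, 2729 and 2750.3 CPM at high pressure. All high-pressure libraries lay above all low-pressure ones, a 2.30-fold rise (log2 fold change 1.20 ± 0.17 (SE), adjusted p = 0.00231). Its partner Col1a2 stood at 1430.0, 1592 and 1906 CPM at low pressure and 2782, 3455 and 3365 CPM at high pressure, again without overlap, a 1.95-fold rise (log2 fold change 0.96 ± 0.14 (SE), adjusted p = 0.00231). Col3a1, whose protein forms fibres together with type I, was at 3538, 3227 and 3692 CPM at low pressure and 3309, 4388 and 4269.8 CPM at high pressure. Its lowest high-pressure library lay within the low-pressure range, and the difference did not pass the test (log2 fold change 0.19 ± 0.13 (SE), adjusted p = 0.294). The type V chain Col5a1, which limits fibril diameter, had 552, 576 and 621 CPM at low pressure and 528, 538 and 563 CPM at high pressure, overlapping by replicate 1 of low pressure (log2 fold change -0.10 ± 0.09 (SE), adjusted p = 0.421). For Col5a2 the libraries held 817, 728 and 1126 CPM at low pressure and 996, 1142 and 1154 CPM at high pressure, with low-pressure replicate 3 near the high-pressure values (log2 fold change 0.30 ± 0.16 (SE), adjusted p = 0.199). Col24a1, a minor fibrillar chain, was the one that fell, from 11.8, 11.5 and 11.6 CPM to 6.33, 8.05 and 8.14 CPM (log2 fold change -0.63 ± 0.17 (SE), adjusted p = 0.0248). Its call was lost without high-pressure replicates 1, 2 or 3 or low-pressure replicates 1 or 2, where the adjusted p reached 0.0799. Col27a1, a fibrillar chain of developing cartilage, had 84.4, 89.02 and 106 CPM at low pressure and 98.7, 89.5 and 93.9 CPM at high pressure, and the groups overlapped (log2 fold change 0.01 ± 0.11 (SE), adjusted p = 0.934). Col5a3 was tested at near-zero levels and did not pass (log2 fold change 0.79 ± 1.17 (SE), adjusted p = 0.654).

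Beside the fibrillar chains, 2 of 7 airway smooth muscle markers rose and 1 fell, with summed levels of 648 to 869 CPM at low pressure against 921 to 1051 CPM at high. In bulk RNA, fewer cells of a type and less RNA per cell cannot be told apart. Of 5 pericyte markers 1 fell (682 to 797 CPM summed at low pressure, 539 to 664 CPM at high), and of 5 mesothelial markers 2 rose (236 to 253 and 253 to 381 CPM). None of these markers was at 0 in either group. Their part in the result was not tested.

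Of the 9 basement membrane chains, 5 rose and none fell, with a median log2 fold change of 0.48. Col4a1 and Col4a2 together make the common type IV network of all basement membranes. Col4a1 was at 583, 496 and 547 CPM at low pressure and 686, 617 and 620.2 CPM at high pressure, without overlap but short of the threshold (log2 fold change 0.24 ± 0.10 (SE), adjusted p = 0.102). Its divergent neighbour Col4a2 was at 313, 281 and 294 CPM at low pressure and 475, 423 and 456 CPM at high pressure and rose (log2 fold change 0.61 ± 0.09 (SE), adjusted p = 0.00266). The divergent pair Col4a3 and Col4a4 encodes chains that join Col4a5 in a network known from kidney and lung. Col4a3 was at 9.32, 6.97 and 9.97 CPM at low pressure and 14.02, 16.01 and 17.8 CPM at high pressure and rose (log2 fold change 0.87 ± 0.18 (SE), adjusted p = 0.0104), in a call lost without high-pressure replicate 3, where the adjusted p reached 0.0563. Col4a4 was at 43.8, 28.6 and 52.5 CPM at low pressure and 55.4, 61.7 and 56.5 CPM at high pressure, in each high-pressure library above each low-pressure one, and did not pass the test (log2 fold change 0.48 ± 0.20 (SE), adjusted p = 0.11). On the X chromosome, Col4a5 had 106, 94.9 and 108 CPM at low pressure and 121, 137 and 131 CPM at high pressure (log2 fold change 0.33 ± 0.09 (SE), adjusted p = 0.0322), a call lost without high-pressure replicates 2 or 3 or low-pressure replicates 1 or 2, where the adjusted p reached 0.125. Col4a6 had 56.2, 50.8 and 59.5 CPM at low pressure and 72.9, 82.6 and 82.5 CPM at high pressure (log2 fold change 0.52 ± 0.10 (SE), adjusted p = 0.0083). All 6 type IV chains were thus higher in every high-pressure library than in any low-pressure one, and 4 of them passed the test.

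Col18a1, a basement membrane chain that carries heparan sulfate and contains endostatin, stood at 317, 321 and 333 CPM at low pressure and 578, 541 and 519 CPM at high pressure and rose with the lowest adjusted p but one among the collagens (log2 fold change 0.75 ± 0.09 (SE), adjusted p = 0.00106). Col15a1, its relative around vessels and muscle, was at 62.5, 54.3 and 63.2 CPM at low pressure and 45.4, 48.1 and 62.1 CPM at high pressure; the groups overlapped (log2 fold change -0.21 ± 0.14 (SE), adjusted p = 0.294). Col7a1, the chain of anchoring fibrils, was at 3.67, 4.76 and 8.24 CPM at low pressure and 4.05, 5.503 and 5.75 CPM at high pressure and did not pass (log2 fold change -0.12 ± 0.32 (SE), adjusted p = 0.812). Markers of the 2 cell layers that rest on basement membranes moved beside these chains. All 7 epithelial markers rose, with summed levels of 633 to 749 CPM at low pressure against 1449 to 1531 CPM at high. Of 7 endothelial markers 3 fell and 4 did not pass, with sums of 208 to 332 and 91.5 to 205 CPM. None of these markers was at 0, and their part in the rise of the basement membrane chains was not tested.

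Of the 6 beaded filament chains, 4 rose and none fell. Col6a1, Col6a2 and Col6a3 are the classical chains of type VI collagen. Col6a1 was at 727, 668 and 858 CPM at low pressure and 933, 961 and 1088 CPM at high pressure (log2 fold change 0.40 ± 0.12 (SE), adjusted p = 0.0367). Col6a2 had 459, 424 and 636 CPM at low pressure and 762, 782 and 781 CPM at high pressure (log2 fold change 0.61 ± 0.15 (SE), adjusted p = 0.0182), and Col6a3 had 264, 219 and 375 CPM at low pressure and 473, 433 and 397 CPM at high pressure (log2 fold change 0.60 ± 0.18 (SE), adjusted p = 0.0417). None of the 3 overlapped, and low-pressure replicate 3 was the highest low-pressure library for each. All 3 calls were lost without high-pressure replicates 1, 2 or 3 or low-pressure replicates 1 or 2, where the adjusted p reached 0.146 for Col6a1, 0.0693 for Col6a2 and 0.134 for Col6a3. Col6a6, an alternative to the third chain, was at 38.3, 39.6 and 37.3 CPM at low pressure and 70.3, 71.8 and 79.8 CPM at high pressure; its groups were far apart, with the lowest adjusted p among the collagens (log2 fold change 0.95 ± 0.10 (SE), adjusted p = 0.000831). Col6a5 had 2.02, 1.01 and 5.33 CPM at low pressure and 7.33, 6.298 and 5.25 CPM at high pressure; low-pressure replicate 3 lay just above the lowest high-pressure value (log2 fold change 1.18 ± 0.52 (SE), adjusted p = 0.127). Col6a4 overlapped (log2 fold change -0.40 ± 0.42 (SE), adjusted p = 0.517). Col6a4, Col6a5 and Col6a6 are neighbouring related genes on chromosome 9, so reads of near-identical stretches may be shared.

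The 6 cartilage chains tested moved in both directions, 2 up and 2 down. Col2a1, the main fibrillar chain of cartilage, was at 352, 465 and 320.2 CPM at low pressure and 202, 245 and 290.0 CPM at high pressure and fell (log2 fold change -0.63 ± 0.17 (SE), adjusted p = 0.0291), in a call lost without high-pressure replicates 1 or 2 or low-pressure replicate 2, where the adjusted p reached 0.105. Col9a1, whose protein coats type II fibrils, was at 32.3, 44.8 and 37.2 CPM at low pressure and 7.26, 14.4 and 14.1 CPM at high pressure and fell (log2 fold change -1.67 ± 0.26 (SE), adjusted p = 0.00326). Col9a2, which assembles with Col9a1, moved the other way, with 27.7, 27.5 and 35.4 CPM at low pressure and 41.2, 43.7 and 44.3 CPM at high pressure (log2 fold change 0.51 ± 0.13 (SE), adjusted p = 0.0207). Neither of the 2 overlapped between the groups. The third chain of the protein, Col9a3, had 16.8, 21.96 and 33.1 CPM at low pressure and 13.02, 18.8 and 18.6 CPM at high pressure, with overlap (log2 fold change -0.51 ± 0.25 (SE), adjusted p = 0.172). Col11a1, a chain of the thin fibrils of cartilage that is also made in other mesenchyme, was at 145, 151 and 171 CPM at low pressure and 119, 152 and 133 CPM at high pressure (log2 fold change -0.21 ± 0.11 (SE), adjusted p = 0.219). Col11a2 had 10.8, 12.4 and 19.5 CPM at low pressure and 22.4, 25.9 and 26.3 CPM at high pressure and rose (log2 fold change 0.80 ± 0.22 (SE), adjusted p = 0.0277). The calls of Col9a2 and Col11a2 were lost without high-pressure replicates 1, 2 or 3 or low-pressure replicates 1 or 2, where the adjusted p reached 0.0862 for Col9a2 and 0.102 for Col11a2. With offsets for GC content and length 17 collagens were called, beside 18.8% of all genes: Col6a1, Col6a2, Col9a2 and Col24a1 no longer passed, and Col26a1 did.

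No marker of cartilage cells passed as higher. Of 7 tested markers of these cells, Sox5 (log2 fold change -0.90) and Sox6 (-0.43), which encode partners of the cartilage regulator Sox9, fell and 5 did not pass. Sox9 itself, listed with the lung identity markers since lung epithelium also expresses it, fell as well (log2 fold change -0.81, adjusted p = 0.00156). The cartilage markers summed to 137 to 158 CPM at low pressure against 92.5 to 107 CPM at high. Acan, the main cartilage proteoglycan, averaged 6.997 CPM at low pressure and 5.95 CPM at high. Matn1, a protein of mature cartilage, averaged 0.0694 and 0.0942 CPM. The part of such cells in the lower Col2a1 and Col9a1 was not tested.

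Among the remaining classes, calls under pressure were all drops. Col8a1, a short-chain collagen of vessel walls and some basement membranes, was at 17.6, 23.3 and 33.8 CPM at low pressure and 1.14, 4.02 and 5.28 CPM at high pressure, the largest drop of any collagen tested (log2 fold change -2.84 ± 0.48 (SE), adjusted p = 0.00459). The highest high-pressure library lay far below the lowest low-pressure one. Its partner chain Col8a2 was at 33.4, 36.8 and 65.5 CPM at low pressure and 35.2, 63.3 and 54.2 CPM at high pressure, with overlap (log2 fold change 0.17 ± 0.29 (SE), adjusted p = 0.696). Col19a1, a fibril-associated chain found near muscle and nerve, was at 3.82, 4.45 and 3.03 CPM at low pressure and 0.8605, 0.705 and 1.28 CPM at high pressure and fell (log2 fold change -1.99 ± 0.36 (SE), adjusted p = 0.00598). It is the neighbour of Col9a1, which also fell. Col12a1, which lies on type I fibrils and is known to respond to load, was at 169, 182 and 196 CPM at low pressure and 117, 145 and 168 CPM at high pressure; its groups did not overlap but it did not pass (log2 fold change -0.34 ± 0.13 (SE), adjusted p = 0.0928). Col14a1, a related chain, was at 66.2, 52.04 and 75.96 CPM at low pressure and 78.4, 69.1 and 69.5 CPM at high pressure (log2 fold change 0.16 ± 0.14 (SE), adjusted p = 0.439). Col16a1 had 67.99, 62.2 and 104 CPM at low pressure and 75.7, 98.4 and 90.96 CPM at high pressure (log2 fold change 0.18 ± 0.19 (SE), adjusted p = 0.528), and Col22a1, a chain of muscle-tendon junctions, had 5.44, 5.39 and 6.68 CPM at low pressure and 3.95, 6.75 and 3.99 CPM at high pressure (log2 fold change -0.25 ± 0.27 (SE), adjusted p = 0.531). These 3 overlapped. Col20a1 did not pass either (log2 fold change 0.22 ± 0.26 (SE), adjusted p = 0.577).

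Transmembrane collagens sit in the cell membrane with the helix outside. Col23a1 was at 93.4, 99.3 and 113 CPM at low pressure and 86.4, 69.9 and 55.4 CPM at high pressure and fell (log2 fold change -0.53 ± 0.16 (SE), adjusted p = 0.0408), in a call lost without high-pressure replicates 2 or 3 or low-pressure replicates 1, 2 or 3, where the adjusted p reached 0.132. Col25a1, a chain known from neurons and muscle, was at 77.01, 70.6 and 93.1 CPM at low pressure and 57.2, 49.4 and 46.7 CPM at high pressure and fell in a call that held in all 6 (log2 fold change -0.65 ± 0.13 (SE), adjusted p = 0.00881). Col13a1 had 73.7, 56.2 and 101 CPM at low pressure and 95.5, 84.9 and 91.2 CPM at high pressure, with overlap (log2 fold change 0.23 ± 0.19 (SE), adjusted p = 0.395). Col17a1, at low levels, did not pass (log2 fold change 0.44 ± 0.33 (SE), adjusted p = 0.36). Col26a1, in no class, was at 75.1, 82.3 and 81.8 CPM at low pressure and 60.9, 73.1 and 72.8 CPM at high pressure; the groups did not overlap, and the test was not passed (log2 fold change -0.21 ± 0.10 (SE), adjusted p = 0.168).

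**Figure D3:**
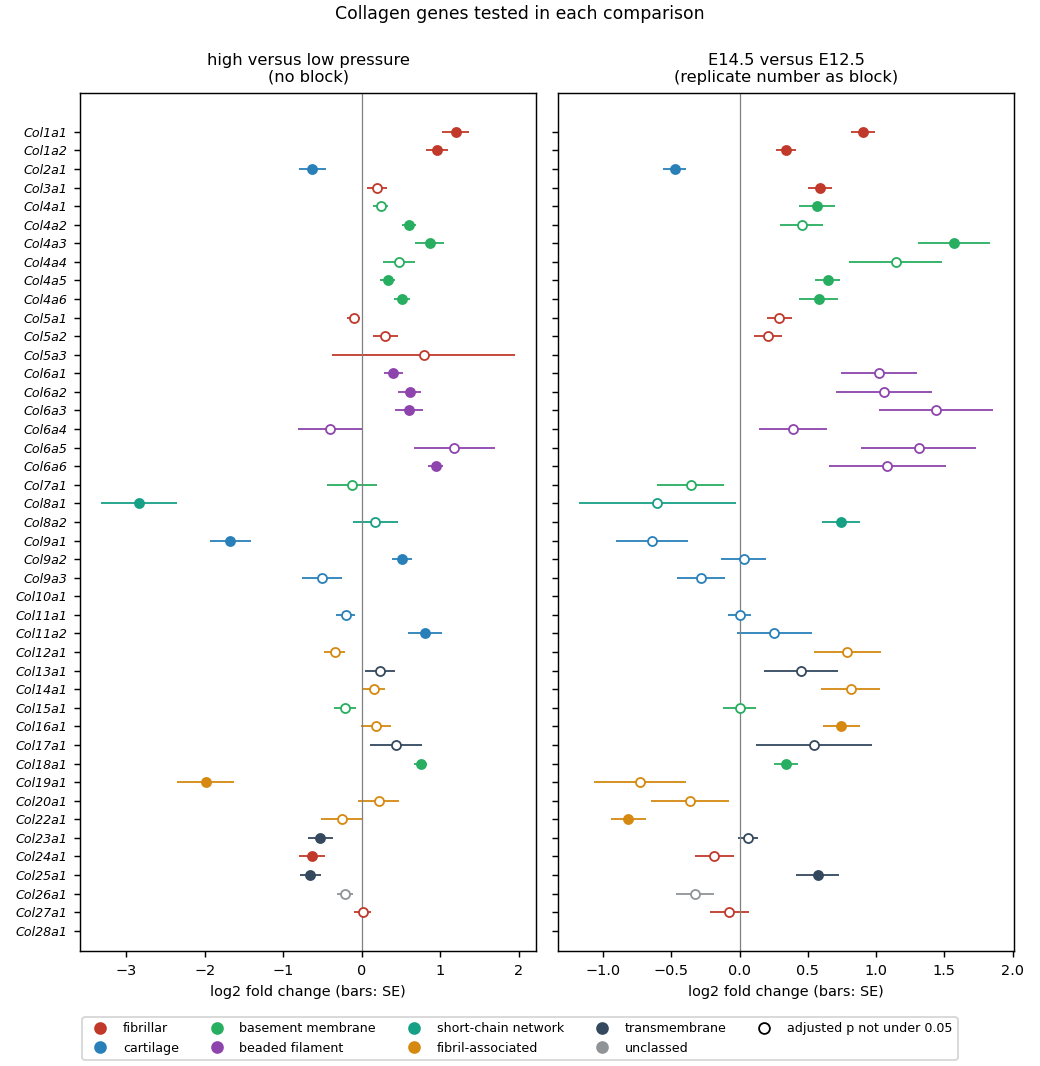
Log2 fold change of each collagen tested, with its SE, for high against low pressure (left) and for E14.5 against E12.5 with the replicate number as a block (right). Colours are classes, and filled points have an adjusted p under 0.05. Most basement membrane (green) and beaded filament (purple) chains lie right of 0 on both sides, and the points farthest to the left under pressure are Col8a1, Col19a1 and Col9a1.

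In fresh lungs, the fit without a block called none of the 41 collagens tested, in any comparison of stages. The lowest adjusted p for E14.5 against E12.5 was 0.197, for Col4a3. At an unadjusted p under 0.05 there were 1, 3 and 9 collagens for E13.5 against E12.5, E14.5 against E13.5 and E14.5 against E12.5. Of all 14242 genes, 123 were under it for E13.5 against E12.5, and the all-gene counts of the later comparisons are not given here. DESeq2 called 0, 1 and 3, and 1 of the 3 was Col28a1, whose counts were too low for the edgeR fit. Replicate 1 deviated from its stage mean alike at all 3 stages. Replicates 2 and 3 correlated across stages as much with the other number as with their own. With the replicate number as a block 13 of 41 collagens changed from E12.5 to E14.5, 11 higher and 2 lower, against 11.0% of all 14242 genes (7.33% higher, 3.63% lower). From E13.5 to E14.5 the block gave 7 calls, 5 higher and 2 lower, against 6.01% of all genes (4.15% higher, 1.86% lower). From E12.5 to E13.5 it gave 0, against 0.00702% of all genes called. An unadjusted p under 0.05 was found there for 7 of the 41 collagens and for 553 of all 14242 genes. No collagen passed the test of the second day's change against the first day's in either edgeR fit (0.0211% of all genes did with the block, 0.00% without), so the days were not shown to differ. The median log2 fold change from E12.5 to E14.5 was 0.39 over the 41 collagens and -0.0034 over all genes. The 3 libraries of E14.5 and E12.5 did not overlap for 11 collagens (8 higher, 3 lower), against 14.1% of all genes (8.76% higher, 5.33% lower). Without replicate number 2 the blocked fit called 2, Col1a1 and Col4a5, and without number 1 or 3 it called 15 and 16. For E14.5 against E13.5 it called 2 without number 1, 1 without number 2 and 13 without number 3. Of the 13 calls from E12.5 to E14.5, only Col1a1 and Col4a5 held without each number in turn. Col1a2, Col4a6 and Col25a1 held in 1 of these 3 fits and Col18a1 in 0. Of the 7 calls from E13.5 to E14.5, only Col1a1 held each time, while Col3a1 and Col8a2 held in 0 of 3 fits.

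Type I and type III chains rose with stage. Col1a1 was at 689, 434 and 405 CPM at E12.5, then 831, 515 and 495 CPM at E13.5 and then 1149, 962 and 715 CPM at E14.5, higher from each stage to the next in all 3 replicate numbers (log2 fold change 0.91 ± 0.09 (SE), adjusted p = 0.00048 with the block, adjusted p = 0.351 without). Col1a2 was at 1437, 842 and 699 CPM at E12.5, then 1636, 826 and 764 CPM at E13.5 and then 1781, 1107 and 871 CPM at E14.5, with replicate 1 highest throughout (log2 fold change 0.34 ± 0.07 (SE), adjusted p = 0.013; adjusted p = 1 without the block). For this gene the fit without the block and without E14.5 replicate 1 gave a log2 fold change of -0.0057. Col3a1 was at 1692, 2568 and 2224 CPM at E12.5, then 1769, 2988 and 2886 CPM at E13.5 and then 2106, 3884 and 4031 CPM at E14.5, where replicate 1 was lowest throughout (log2 fold change 0.59 ± 0.09 (SE), adjusted p = 0.00343; adjusted p = 0.658 without). Both Col1a1 and Col3a1 also passed from E13.5 to E14.5, Col1a1 with log2 fold change 0.64 ± 0.09 (SE), adjusted p = 0.00387 and Col3a1 with log2 fold change 0.37 ± 0.09 (SE), adjusted p = 0.033. This call of Col3a1 was lost without replicate number 1, 2 or 3, where the adjusted p reached 0.215. Beside these chains, in the blocked fit from E12.5 to E14.5, 2 of 7 airway smooth muscle markers rose, Acta2 (log2 fold change 0.96) and Tagln (0.49), with summed levels of 389 to 835 CPM at E12.5 and 798 to 1142 CPM at E14.5. Of 5 mesothelial markers 2 rose (116 to 160 and 149.9 to 245.9 CPM), and of 5 pericyte markers 1 rose and 1 fell (369 to 499.7 and 334 to 438 CPM). None of these markers was at 0, and their part in the result was not tested.

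The other fibrillar chains did not pass. Col5a1 was at 271, 202 and 181 CPM at E12.5, then 284, 218 and 221 CPM at E13.5 and then 271, 278 and 240.2 CPM at E14.5 (log2 fold change 0.29 ± 0.09 (SE), adjusted p = 0.0626). Col5a2 had 494, 429 and 343 CPM at E12.5, then 543, 490.3 and 487 CPM at E13.5 and then 449, 524 and 476 CPM at E14.5 (log2 fold change 0.21 ± 0.10 (SE), adjusted p = 0.224). Col24a1 had 6.26, 9.57 and 8.02 CPM at E12.5, then 8.23, 10.5 and 10.3 CPM at E13.5 and then 5.35, 8.13 and 7.504 CPM at E14.5, with its highest values at E13.5 in each replicate number (log2 fold change -0.19 ± 0.14 (SE), adjusted p = 0.43). Col27a1 was at 113, 70.7 and 49.7 CPM at E12.5, then 94.8, 62.2 and 69.3 CPM at E13.5 and then 84.3, 67.05 and 62.03 CPM at E14.5, and its stages overlapped (log2 fold change -0.08 ± 0.14 (SE), adjusted p = 0.775).

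Of the 9 basement membrane chains, 5 rose from E12.5 to E14.5 and none fell. Col4a1 was at 395, 312 and 212 CPM at E12.5, then 345, 285 and 312 CPM at E13.5 and then 507, 454 and 377 CPM at E14.5, higher at E14.5 than at E12.5 in each replicate number (log2 fold change 0.57 ± 0.13 (SE), adjusted p = 0.03; adjusted p = 0.527 without the block). Col4a2 had 251, 106 and 65.8 CPM at E12.5, then 222, 85.2 and 96.9 CPM at E13.5 and then 293, 145 and 109.8 CPM at E14.5; replicate 1 was well above the others at every stage, and the difference did not pass (log2 fold change 0.46 ± 0.16 (SE), adjusted p = 0.111). Col4a3 was at 2.94, 2.75 and 1.002 CPM at E12.5, then 3.53, 4.38 and 2.64 CPM at E13.5 and then 6.505, 6.56 and 5.94 CPM at E14.5, with no overlap of E12.5 and E14.5 and the steepest rise of the collagens that passed (log2 fold change 1.57 ± 0.27 (SE), adjusted p = 0.00505; adjusted p = 0.197 without the block). Its divergent neighbour Col4a4 had 9.92, 16.6 and 7.17 CPM at E12.5, then 10.1, 20.6 and 21.5 CPM at E13.5 and then 13.3, 31.5 and 33.4 CPM at E14.5 (log2 fold change 1.14 ± 0.34 (SE), adjusted p = 0.0889). Col4a5 was at 55.8, 111 and 115 CPM at E12.5, then 55.8, 119 and 118 CPM at E13.5 and then 85.5, 207 and 154 CPM at E14.5, level between E12.5 and E13.5 and higher at E14.5 in each replicate number (log2 fold change 0.65 ± 0.09 (SE), adjusted p = 0.00241; adjusted p = 0.849 without the block). Its change from E13.5 to E14.5 passed as well (log2 fold change 0.60 ± 0.09 (SE), adjusted p = 0.00544). Col4a6 was at 29.4, 38.3 and 34.1 CPM at E12.5, then 27.4, 37.7 and 47.4 CPM at E13.5 and then 39.1, 67.9 and 47.2 CPM at E14.5 (log2 fold change 0.58 ± 0.15 (SE), adjusted p = 0.0336; adjusted p = 0.536 without). Again every type IV chain had a positive fold change, with 4 of 6 passing.

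Col18a1 was at 304, 192 and 149 CPM at E12.5, then 283, 144 and 154 CPM at E13.5 and then 384, 234 and 196 CPM at E14.5, with replicate 1 above the other 2 at each stage (log2 fold change 0.34 ± 0.09 (SE), adjusted p = 0.0272; adjusted p = 1 without the block). It too passed from E13.5 to E14.5 (log2 fold change 0.49 ± 0.09 (SE), adjusted p = 0.00964). Its call from E12.5 to E14.5 was lost without replicate number 1, 2 or 3, where the adjusted p reached 0.128. Col15a1 was at 66.7, 50.8 and 54.3 CPM at E12.5, then 75.8, 36.96 and 46.8 CPM at E13.5 and then 80.2, 50.3 and 45.7 CPM at E14.5, with no trend shared by the replicate numbers (log2 fold change 0.00 ± 0.12 (SE), adjusted p = 0.996). Col7a1 was at 2.12, 2.799 and 3.41 CPM at E12.5, then 1.99, 4.07 and 3.66 CPM at E13.5 and then 1.801, 2.05 and 2.59 CPM at E14.5 (log2 fold change -0.36 ± 0.25 (SE), adjusted p = 0.371). Beside the basement membrane chains, 5 of 7 endothelial markers rose (411 to 554 CPM summed at E12.5 and 646 to 776 CPM at E14.5), and none of 7 epithelial markers passed (323 to 747 and 381 to 936 CPM). None of these markers was at 0, and their part in the result was not tested.

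**Figure D4:**
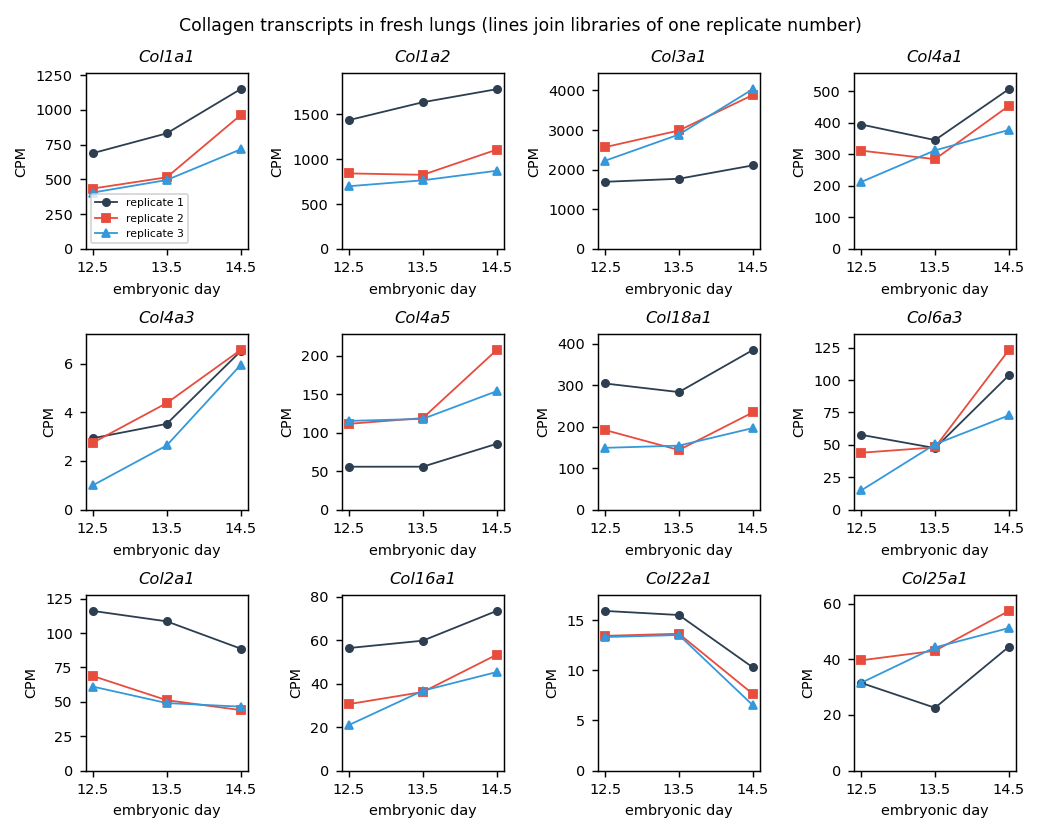
CPM of 12 collagens in the 9 fresh libraries against embryonic day, on axes from 0, with lines that join libraries of the same replicate number. Col1a1 goes up along each line, Col22a1 is level and then lower at E14.5, and replicate 1 lies apart from the others in opposite directions for Col1a2 and Col3a1.

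The beaded filament chains had the highest fold changes as a class (median log2 fold change 1.07) and none passed. Col6a1 was at 188, 85.4 and 39.9 CPM at E12.5, then 161, 90.2 and 91.5 CPM at E13.5 and then 296, 163 and 124 CPM at E14.5 (log2 fold change 1.02 ± 0.28 (SE), adjusted p = 0.0832). Col6a2 had 221, 76.6 and 32.6 CPM at E12.5, then 199, 79.1 and 94.7 CPM at E13.5 and then 346, 151 and 109.9 CPM at E14.5 (log2 fold change 1.06 ± 0.35 (SE), adjusted p = 0.139), and Col6a3 had 57.7, 43.9 and 14.8 CPM at E12.5, then 47.5, 48.1 and 50.4 CPM at E13.5 and then 104, 123 and 72.7 CPM at E14.5 (log2 fold change 1.44 ± 0.42 (SE), adjusted p = 0.106). E12.5 replicate 3 was the lowest of the 9 fresh libraries for each of these 3 genes. Col6a5 was at 1.54, 1.08 and 0.301 CPM at E12.5, then 1.18, 0.938 and 0.782 CPM at E13.5 and then 5.604, 1.36 and 1.03 CPM at E14.5 (log2 fold change 1.31 ± 0.42 (SE), adjusted p = 0.0673). Col6a6 was at 21.7, 22.3 and 8.42 CPM at E12.5, then 21.8, 19.5 and 19.9 CPM at E13.5 and then 23.2, 45.01 and 40.2 CPM at E14.5, where E12.5 replicate 3 was again lowest (log2 fold change 1.08 ± 0.43 (SE), adjusted p = 0.187).

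Among cartilage chains, Col2a1 fell. It was at 116, 68.8 and 61.1 CPM at E12.5, then 109, 51.2 and 49.1 CPM at E13.5 and then 88.8, 44.02 and 46.5 CPM at E14.5, lower at E14.5 than at E12.5 in each replicate number (log2 fold change -0.48 ± 0.08 (SE), adjusted p = 0.00627; adjusted p = 1 without the block). Sox5 fell beside it (log2 fold change -0.52) and the cartilage link protein Hapln1 rose (0.65), while 6 of 8 tested cartilage cell markers did not pass. Those markers summed to 145 to 204 CPM at E12.5 and 161 to 235 CPM at E14.5, and Matn1 was at 0 in all E12.5 and E13.5 libraries. The chains of type IX did not pass. Col9a1 was at 5.63, 11.1 and 19.5 CPM at E12.5, then 7.77, 11.6 and 12.9 CPM at E13.5 and then 5.704, 9.02 and 6.69 CPM at E14.5 (log2 fold change -0.64 ± 0.26 (SE), adjusted p = 0.153), with E12.5 replicate 3 highest. Col9a2 had 13.3, 5.96 and 4.11 CPM at E12.5, then 14.2, 6.41 and 6.35 CPM at E13.5 and then 11.6, 5.56 and 5.72 CPM at E14.5 (log2 fold change 0.03 ± 0.17 (SE), adjusted p = 0.924). Col9a3 had 9.73, 14.7 and 13.8 CPM at E12.5, then 10.3, 16.8 and 10.4 CPM at E13.5 and then 11.3, 11.9 and 8.15 CPM at E14.5 (log2 fold change -0.28 ± 0.18 (SE), adjusted p = 0.328). No stage stood apart for any of the 3. Col11a1 was at 63.1, 74.1 and 66.95 CPM at E12.5, then 63.5, 83.8 and 66.8 CPM at E13.5 and then 59.9, 71.9 and 72.4 CPM at E14.5 (log2 fold change 0.00 ± 0.08 (SE), adjusted p = 1), and Col11a2 at 9.73, 5.46 and 2.81 CPM at E12.5, then 8.84, 4.48 and 5.91 CPM at E13.5 and then 8.36, 5.09 and 6.96 CPM at E14.5 (log2 fold change 0.26 ± 0.27 (SE), adjusted p = 0.588).

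In the remaining classes 4 chains changed from E12.5 to E14.5. Col8a2 was at 13.1, 8.17 and 7.12 CPM at E12.5, then 16.4, 8.29 and 6.99 CPM at E13.5 and then 19.9, 14.6 and 12.4 CPM at E14.5 and rose (log2 fold change 0.75 ± 0.14 (SE), adjusted p = 0.00808; adjusted p = 0.701 without the block), also from E13.5 to E14.5 (log2 fold change 0.62 ± 0.14 (SE), adjusted p = 0.0258). The Col8a2 call from E13.5 to E14.5 was lost without replicate number 1, 2 or 3, where the adjusted p reached 0.226. Col16a1, which links fibrils to neighbouring matrix, rose as well. It was at 56.3, 30.6 and 20.9 CPM at E12.5, then 59.7, 36.1 and 36.7 CPM at E13.5 and then 73.4, 53.3 and 45.3 CPM at E14.5 (log2 fold change 0.75 ± 0.14 (SE), adjusted p = 0.00952; adjusted p = 0.752 without the block). Col25a1 was at 31.5, 39.7 and 31.6 CPM at E12.5, then 22.6, 43.1 and 44.3 CPM at E13.5 and then 44.5, 57.4 and 51.3 CPM at E14.5 and just passed (log2 fold change 0.57 ± 0.16 (SE), adjusted p = 0.0494; adjusted p = 0.566 without). Col22a1 fell. It was at 15.9, 13.45 and 13.3 CPM at E12.5, then 15.5, 13.7 and 13.54 CPM at E13.5 and then 10.3, 7.66 and 6.53 CPM at E14.5, with each E14.5 library below every earlier one (log2 fold change -0.81 ± 0.13 (SE), adjusted p = 0.00416; adjusted p = 0.197 without), and it also passed from E13.5 to E14.5 (log2 fold change -0.82 ± 0.13 (SE), adjusted p = 0.00724). Col26a1 was at 63.04, 45.003 and 45.6 CPM at E12.5, then 85.3, 55.4 and 45.5 CPM at E13.5 and then 40.4, 42.7 and 37.4 CPM at E14.5 and fell between E13.5 and E14.5 (log2 fold change -0.58 ± 0.14 (SE), adjusted p = 0.0446; adjusted p = 0.632 without), but its E14.5 level did not differ from E12.5 past the threshold (log2 fold change -0.33 ± 0.14 (SE), adjusted p = 0.168). Markers of striated muscle moved beside these: 6 of 9 tested rose, and they summed to 6.26 to 36.6 CPM at E12.5 and 307 to 1341 CPM at E14.5, with none at 0. Their part was not tested.

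The rest of these classes did not pass. Col8a1 was at 0.963, 4.42 and 8.77 CPM at E12.5, then 0.613, 1.62 and 1.08 CPM at E13.5 and then 2.25, 3.73 and 1.78 CPM at E14.5, with the widest spread at E12.5 (log2 fold change -0.60 ± 0.58 (SE), adjusted p = 0.551). Col12a1 had 33.8, 28.4 and 16.1 CPM at E12.5, then 31.7, 35.9 and 39.2 CPM at E13.5 and then 42.8, 54.3 and 36.7 CPM at E14.5 (log2 fold change 0.79 ± 0.25 (SE), adjusted p = 0.0938), and Col14a1 had 89.8, 77.9997 and 44.5 CPM at E12.5, then 79.7, 94.5 and 88.3 CPM at E13.5 and then 121, 126 and 119 CPM at E14.5 (log2 fold change 0.82 ± 0.22 (SE), adjusted p = 0.0675). For both, all E14.5 libraries lay above all E12.5 ones. Col13a1 was at 58.9, 24.96 and 11.8 CPM at E12.5, then 56.2, 26.6 and 26.9 CPM at E13.5 and then 56.1, 30.3 and 30.1 CPM at E14.5 (log2 fold change 0.45 ± 0.27 (SE), adjusted p = 0.345). Col23a1 was at 75.1, 67.6 and 59.1 CPM at E12.5, then 70.4, 57.7 and 57.2 CPM at E13.5 and then 82.01, 67.9 and 61.5 CPM at E14.5, nearly level (log2 fold change 0.06 ± 0.07 (SE), adjusted p = 0.622). Col19a1 was at 0.674, 1.94 and 4.26 CPM at E12.5, then 0.664, 2.19 and 2.59 CPM at E13.5 and then 0.5004, 1.89 and 1.46 CPM at E14.5, lowest in replicate 1 at each stage (log2 fold change -0.73 ± 0.34 (SE), adjusted p = 0.188). Col6a4, Col17a1 and Col20a1, all at low levels, did not pass either.

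The pressure comparison and the stage comparison share no library. In each, pools of 3 lungs (high pressure, E14.5) stand against pools of 6 (low pressure, E12.5), so pool size cannot be told apart from either change. Of 41 collagens tested in both, 6 were called higher in both (Col1a1, Col1a2, Col4a3, Col4a5, Col4a6 and Col18a1), which is 46.2% of the 13 that rose with pressure and 54.5% of the 11 that rose with stage. Over all 14017 genes tested in both, 1.99% were called higher in both, which is 13.8% of those that rose with pressure and 27.8% of those that rose with stage. Of the 6 collagens, Col18a1 lost its stage call without replicate number 1, 2 or 3. Those of Col1a2 and Col4a6 held in 1 of these 3 fits. Col2a1 was called lower in both, as were 1.28% of all genes. Col25a1 was lower with pressure (-0.65) and higher with stage (0.57). The sign was shared by 32 of 41 (78.0%), against 55.8% of all genes, and across these 41 genes, which are not independent replicates, Pearson's r of the 2 log2 fold changes was 0.69 and Spearman's rho 0.66, against 0.20 and 0.18 across all genes. The difference of the 2 changes was tested itself, in a fit of all 15 libraries. Its block had terms for the replicate number in the fresh and, separately, in the cultured libraries. Same-numbered cultured libraries did not deviate together (r from -0.0124 to 0.0461). Without a block none of 42 collagens passed (0.723% of all genes did). With the block 7 passed (19.3% of all genes, 9.26% higher and 9.99% lower): Col1a2 and Col18a1 changed more with pressure, and Col8a1, Col9a1, Col12a1, Col23a1 and Col25a1 were lower with pressure relative to stage. For Col12a1 the difference was log2 fold change -1.13 ± 0.26 (SE), adjusted p = 0.0132, from log2 fold changes of -0.34 with pressure and 0.79 with stage, neither of which passed alone. With a term for replicate 1 of the fresh libraries in place of the block, 5 of them passed, all but Col8a1 and Col9a1. Leaving out each of the 15 libraries from the blocked fit kept the calls of Col1a2, Col12a1 and Col25a1 each time, and the count ran from 3 to 10. For Col1a1 the difference did not pass (log2 fold change 0.31 ± 0.14 (SE), adjusted p = 0.131), nor did it for Col3a1 (log2 fold change -0.39 ± 0.16 (SE), adjusted p = 0.101).

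Ratios of chains that work together were taken within each library, per kb, where the scaling of a library cancels. They are given as values without a test. Col1a1 to Col1a2, which join in the type I protein, was 0.568, 0.593 and 0.639 at low pressure and 0.679, 0.712 and 0.737 at high pressure. In fresh lungs it was 0.432, 0.465 and 0.523 at E12.5, then 0.458, 0.562 and 0.584 at E13.5 and then 0.582, 0.784 and 0.741 at E14.5. Neither low and high pressure nor E12.5 and E14.5 overlapped. The ratio of Col3a1 to Col1a1 was 4.19, 3.28 and 2.91 at low pressure and 1.68, 1.71 and 1.65 at high pressure. In fresh lungs replicate 1 was at 2.62, 2.27 and 1.95 at the 3 stages, and replicates 2 and 3 were between 4.30 and 6.31, so the stages overlapped. For the divergent pair Col4a1 and Col4a2 the mean ratio was 1.78 ± 0.055 (SD, n = 3) at low and 1.38 ± 0.051 at high pressure. Col4a5 to Col4a6 was 1.89 ± 0.036 and 1.66 ± 0.044, and Col4a3 to Col4a4 was 0.255 ± 0.032 and 0.326 ± 0.041. None of these 3 ratios overlapped between the pressures. Between E12.5 and E14.5 all 3 overlapped. Within replicate numbers 1, 2 and 3, Col4a1 to Col4a2 went from 1.53, 2.87 and 3.14 at E12.5 to 1.69, 3.05 and 3.35 at E14.5, higher in 3 of 3 and opposite to its direction with pressure. Col4a3 to Col4a4 went from 0.350, 0.196 and 0.165 to 0.580, 0.246 and 0.210, also higher in 3 of 3, and Col4a5 to Col4a6 was higher in 2 of 3.

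Col9a1 to Col9a2 was 0.978 ± 0.24 at low and 0.210 ± 0.066 at high pressure, the ratio with the largest shift. Col5a1 to Col5a2 was 0.530 ± 0.094 and 0.391 ± 0.024, also without overlap. The type VI ratios overlapped between low and high pressure, with Col6a1 to Col6a2 at 1.45 ± 0.13 and 1.24 ± 0.092 and Col6a3 to Col6a1 at 0.171 ± 0.026 and 0.201 ± 0.032.

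**Figure D5:**
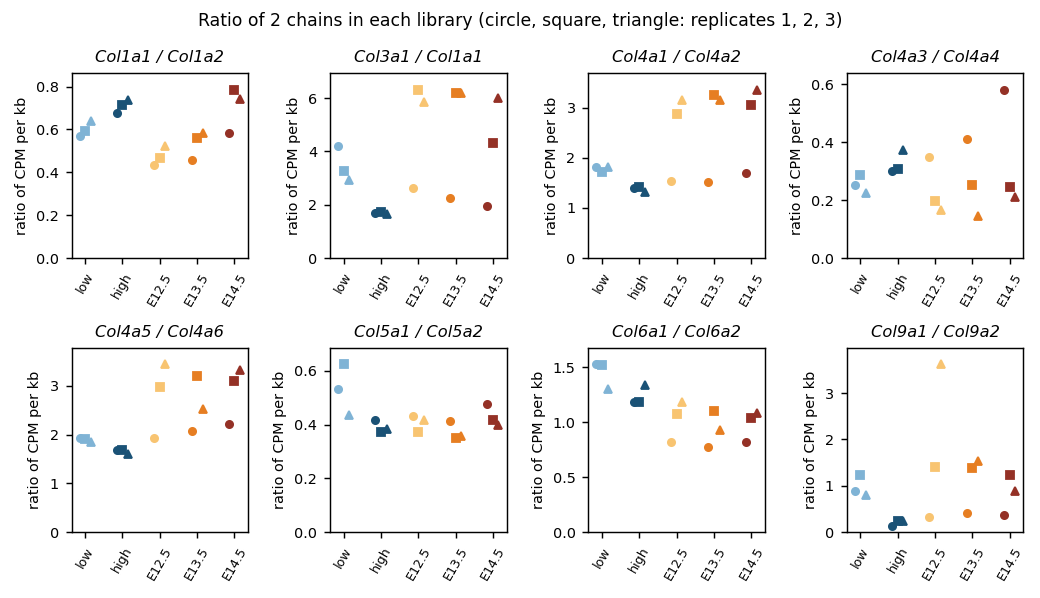
Ratio of CPM per kb of 2 chains in each library, by group, on axes from 0, with circle, square and triangle for replicates 1, 2 and 3. Of the 8 ratios drawn, low and high pressure overlap for Col6a1 to Col6a2 and for no other. In fresh lungs replicate 1 lies outside replicates 2 and 3 of its stage for all 8, clearly so for Col3a1 to Col1a1, Col4a1 to Col4a2 and Col9a1 to Col9a2.

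Cultured and fresh libraries stand in separate tables, so culture cannot be told apart from the data set. On a shared scale, all 6 cultured libraries lay above all 9 fresh ones for 13 of the 42 collagens tested, against 12.6% of all genes, and below for none, against 11.7% of all genes. The 13 were Col2a1, Col4a3, Col5a1, Col5a2, Col6a1, Col6a2, Col6a3, Col8a2, Col9a2, Col11a1, Col11a2, Col12a1 and Col20a1. Their low-pressure mean was 1.78 to 7.36 times the E12.5 mean, with Col6a3 at 7.36, Col6a1 at 7.20 and Col12a1 at 6.98. Col6a1 averaged 183 CPM per kb at low and 242 at high pressure, against 25.4 at E12.5 and 47.0 at E14.5.

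Chains become a fibre only after enzymes modify, fold, export, trim and crosslink them. In 6 lists, 59 genes were followed: those of these steps, and fibril-regulating proteoglycans, collagen receptors and collagen-cleaving proteases. Of 18 genes of chain modification and folding, 7 rose and 4 fell under pressure, beside 14.0% of all genes called higher and 12.2% called lower. Leprel4 (now P3h4), a partner of a lysyl hydroxylase, rose (log2 fold change 1.05 ± 0.12, adjusted p = 0.00105), as did Plod3 (log2 fold change 0.62 ± 0.08, adjusted p = 0.00179), a lysyl hydroxylase that also adds sugars, and Glt25d1 (now Colgalt1, log2 fold change 0.54 ± 0.10, adjusted p = 0.00603), a galactosyltransferase. Plod2, the lysyl hydroxylase of the chain ends, fell (log2 fold change -0.95 ± 0.17, adjusted p = 0.00516). Of 12 tested genes of export and propeptide removal 4 rose and 1 fell. The propeptidases Adamts2 (log2 fold change 1.03 ± 0.12, adjusted p = 0.00124) and Bmp1 (log2 fold change 0.48 ± 0.08, adjusted p = 0.00443), the enhancer Pcolce (log2 fold change 1.27 ± 0.18, adjusted p = 0.00211) and the coat protein Sec24d (log2 fold change 0.57 ± 0.09, adjusted p = 0.00333) were the ones that rose. Of 5 crosslinking enzymes, Loxl1 (log2 fold change 1.098 ± 0.21, adjusted p = 0.0072) and Lox (log2 fold change 0.43 ± 0.13, adjusted p = 0.0422) rose and Loxl2 fell (log2 fold change -0.65 ± 0.12, adjusted p = 0.00633).

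Of 7 tested proteoglycans that sit on fibrils and regulate their growth, 3 rose under pressure and none fell. These were Fmod (log2 fold change 1.56 ± 0.14, adjusted p = 0.000583), Prelp (log2 fold change 1.43 ± 0.19, adjusted p = 0.00193) and Bgn (log2 fold change 1.08 ± 0.17, adjusted p = 0.00372). Of 9 tested receptors for collagen, 1 rose, the epithelial kinase Ddr1 (log2 fold change 0.52 ± 0.13, adjusted p = 0.02), and 3 fell, the mesenchymal kinase Ddr2 (log2 fold change -0.45 ± 0.09, adjusted p = 0.00788) and the integrin chains Itga1 (log2 fold change -0.58 ± 0.12, adjusted p = 0.00821) and Itga2 (log2 fold change -1.56 ± 0.35, adjusted p = 0.0136). None of 5 collagen-cleaving proteases passed, in edgeR at an adjusted p under 0.05. Median log2 fold changes were 0.18 for modification, 0.28 for export, 0.45 for crosslinking, 0.73 for proteoglycans, -0.45 for receptors and 0.18 for proteases, beside 0.014 for all genes.

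In the blocked fit of E14.5 against E12.5, no gene of these 6 lists fell, where 3.63% of all genes were called lower and 7.33% higher. Of 18 modification genes 6 rose, with Crtap (log2 fold change 0.44 ± 0.08, adjusted p = 0.00862) and Fkbp14 (log2 fold change 0.45 ± 0.09, adjusted p = 0.00986) at the lowest p, followed by Leprel4 (log2 fold change 0.40 ± 0.09, adjusted p = 0.0185) and Fkbp10 (log2 fold change 0.27 ± 0.06, adjusted p = 0.0205). Plod2, named after its values were seen, was among the 6 (log2 fold change 0.33 ± 0.08, adjusted p = 0.026), opposite to its change with pressure. Of the 12 export genes Sec24d rose (log2 fold change 0.48 ± 0.09, adjusted p = 0.00635), and of the 5 crosslinking enzymes Lox (log2 fold change 0.86 ± 0.09, adjusted p = 0.000594) and Loxl1 (log2 fold change 0.67 ± 0.15, adjusted p = 0.0185). Of 7 proteoglycans 5 rose, among them Bgn (log2 fold change 0.63 ± 0.08, adjusted p = 0.00168), Prelp (log2 fold change 1.61 ± 0.26, adjusted p = 0.00826), Ogn (log2 fold change 1.605 ± 0.23, adjusted p = 0.0105) and Aspn (log2 fold change 2.97 ± 0.65, adjusted p = 0.0248). Of 8 receptors Itgb1 (log2 fold change 0.37 ± 0.08, adjusted p = 0.0157) and Itga2 (log2 fold change 0.77 ± 0.19, adjusted p = 0.0327) rose, and none of 3 proteases passed. Without the block no gene of all 14242 passed between these stages.

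Replicate 1 of the fresh libraries stood apart over all genes, not only the collagens. Its chi-square per degree of freedom against replicates 2 and 3 of its stage was 112 to 184. Between replicates 2 and 3 it was 7.51 to 19.1. Low-pressure replicate 3 also stood apart, with 84.6 and 86.9 against replicates 1 and 2 of its group, which had 12.4 between them. High-pressure pairs had 21.8 to 33.4. Among the collagens, replicate 1 of the fresh libraries deviated in both directions. It was the highest of the 3 libraries at all 3 stages for 18 of the 41 tested, among them Col1a1, Col1a2, Col2a1, Col4a2, Col6a1 and Col6a2. It was the lowest at all 3 stages for 10, among them Col3a1, Col4a5, Col4a6, Col9a1 and Col11a1. Transcript GC content ran from 46.8% to 64.1% over the 44 genes. Across the 41 tested collagens, the deviation of replicate 1 from the mean of replicates 2 and 3 had a Spearman's rho of 0.57 with GC content, against 0.18 for the pressure fold change across 42. The same counts and correlations are not given over all genes, so they are not shown to be particular to the collagens. These are descriptions across genes, and the part of GC content in the deviation was not tested.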

How the data were processed

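RNA from whole embryonic lung was sequenced in 15 libraries. Per the submitters' processing notes, cutadapt 1.6, Bowtie 1.1.1, TopHat and HTSeq were used on build mm10. The annotation, strand setting and filters behind the counts are not given in these sources. Of 8 deposited tables, the 2 with raw read counts (whole numbers per gene, deposited by the authors without normalization) were used, and the other 6 were not used here. No 2 libraries of a group agreed within sampling noise (chi-square per degree of freedom 7.51 to 184 over 15 pairs).

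The members and gene lists were chosen with earlier results of these data known. All genes of each table were fitted with edgeR 4.0.16 (R 4.3.3, limma 3.58.1; TMM, filterByExpr, robust quasi-likelihood) and p-values adjusted over all genes tested (Benjamini-Hochberg, threshold 0.05). The fit was checked on simulated counts. The labels number replicates 1 to 3 in each group. In the fresh lungs all 9 same-numbered pairs deviated from their stage means together (r from 0.397 to 0.838, against -0.736 to 0.625 for 18 other pairs). Only replicate 1 stood out, with r from 0.786 to 0.838 among its own libraries and negative r with replicates 2 and 3. Since deviations were taken from the mean of 3 libraries, that negative sign largely follows once replicate 1 lies apart. The same holds in part for positive r between replicates 2 and 3. Replicates 2 and 3 correlated as strongly with the other number (0.454 to 0.625) as with their own (0.397 to 0.606). A match of those 2 numbers across stages was therefore not shown. Blocked results are printed beside those without a block. Fold changes with pressure come from the cultured table alone, and CPM per kb from TMM scaling of all 15 libraries over the longest principal transcript of GENCODE M21. A collagen with a mean of at least 5 CPM in a group or a call is given in every library, and of each pathway list up to 4 genes with the smallest p among those that passed. DESeq2 1.42.0, its size factors, no filter, offsets for GC content and length, and leaving out libraries were alternatives.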

Additional observations from a re-analysis of the deposited data

Results flagged for a closer look

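For 7 collagens the change with pressure differed from the change between E12.5 and E14.5, by a test of the difference itself. The replicate number was the block, separately in the fresh and in the cultured libraries. The 7 of 42 tested are a share no higher than the 19.3% of all genes called in the same fit. Collagens were therefore not called more often than other genes. Col1a2 (log2 fold change 0.63 ± 0.12 (SE), adjusted p = 0.00448) and Col18a1 (log2 fold change 0.42 ± 0.13 (SE), adjusted p = 0.0379) changed more with pressure. Col8a1 (log2 fold change -2.37 ± 0.67 (SE), adjusted p = 0.031), Col9a1 (log2 fold change -1.07 ± 0.34 (SE), adjusted p = 0.047), Col12a1 (log2 fold change -1.13 ± 0.26 (SE), adjusted p = 0.0132), Col23a1 (log2 fold change -0.60 ± 0.18 (SE), adjusted p = 0.0399) and Col25a1 (log2 fold change -1.21 ± 0.23 (SE), adjusted p = 0.00476) were lower with pressure relative to stage. The calls of Col1a2, Col12a1 and Col25a1 held without each of the 15 libraries, whereas those of Col8a1, Col9a1, Col18a1 and Col23a1 held in 5, 4, 5 and 2 of these 15 fits, with adjusted p of up to 0.118, 0.156, 0.14 and 0.0981. Without the block none of the 7 passed, and their adjusted p ran from 0.107 (Col25a1) to 0.723 (Col18a1), with Col12a1 at 0.141. The pressure change was measured in culture and the stage change in the embryo, so the 2 experiments cannot be told apart from the 2 kinds of change.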

How the results depend on the processing

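High against low pressure gave 20 collagen calls with DESeq2, with its size factors and without a filter, as in the main fit, and 17 with offsets for GC content and length. Over all genes 26.1% were called in the main fit, 26.1% with DESeq2 and 18.8% with the offsets. The cultured libraries share only a replicate number (same-numbered pairs correlated from -0.0124 to 0.0461), and with it as a replicate block 17 were called: Col4a5, Col23a1 and Col24a1 no longer passed. One fit of all 15 libraries called 3, and with a term for replicate 1 of the fresh libraries 17. Leaving out 1 library gave 11 to 25. For the other settings of this section the share over all genes is not given. A shift in their collagen counts is therefore not shown to be particular to collagens.

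Between stages the fits that omit the block called 0, apart from these. DESeq2 called 3 for E14.5 against E12.5 and 1 for E14.5 against E13.5, and leaving out replicate 1 of all stages called 10 and 1. With the block, E14.5 against E12.5 gave 13 (without a filter 13, DESeq2 size factors 12, GC and length offsets 14, DESeq2 21) and 2 to 16 when a replicate number was left out. E14.5 against E13.5 gave 7 (7, 7, 13 and 10 in the same order) and 1 to 13. A term for replicate 1 in place of the block gave 13 and 7. The second day against the first gave 1 with the block in DESeq2, and 0 to 3 without a replicate number. Pressure against stage gave 0 without the block and 0 to 1 when a library was left out of that fit. It gave 7 with the block, 3 to 10 when a library was left out of the blocked fit (3 without E12.5 replicate 2, E13.5 replicate 1 or E14.5 replicate 2, 4 without E14.5 replicate 1, high-pressure replicate 1 or low-pressure replicate 1, 5 or 6 without 6 other libraries, 8 without E12.5 replicate 3 and 10 without replicate 3 of either pressure), and 5 with the term for replicate 1. In the fit that omits the block, the log2 fold change of Col1a2 from E12.5 to E14.5 ran from -0.0057 without E14.5 replicate 1 to 0.70 without E12.5 replicate 1.

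Chain ratios, as log2 means over all libraries, moved with the length used. With the union of all exons Col1a1 to Col1a2 was 0.32 in place of -0.75, Col5a1 to Col5a2 -0.73 in place of -1.25, and Col6a1 to Col6a2 1.12 in place of 0.14. Undivided counts gave -0.90 for Col5a1 to Col5a2 and -1.21 in place of -2.35 for Col6a3 to Col6a1. A length shifts all libraries of a ratio alike. The term for replicate 1, the combined settings with the block, its fits without a library and the exon union were chosen after seeing the data. Pools of 3 per group, of unstated origin, limit every test, and depth limits Col10a1, Col28a1 and Col5a3.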
